A study of Mus musculus with 60 samples.

Results

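The measurements below follow 9 transcription factor genes that mark the identity of lung, stomach or liver tissue (Nkx2-1, Foxf1, Tbx5, Trp63, Sox2, Pitx1, Barx1, Foxa2 and Gata4) in mice that were gavaged with benzo(ghi)perylene (BghiP), a polycyclic aromatic hydrocarbon. The genes were chosen by name and were found on the array through the RefSeq accession of each probe, which gave 11 probes for 9 of the 20018 genes that could be named. Adult male MutaTMMouse, a transgenic reporter strain aged about 10 weeks, received BghiP in olive oil by daily oral gavage for 28 days. The 4 groups of 5 mice were vehicle (D0, olive oil only, 0 mg/kg-bw/day), 6.25 (D1), 12.5 (D2) and 25 mg/kg-bw/day (D3), and lung, liver and forestomach were taken 72 h after the last dose. RNA came from random sections of each tissue, so a piece could hold neighbouring tissue. Each of the 60 arrays compared tissue RNA (Cy5) with a common reference RNA pooled from 11 mouse cell lines (Cy3), with no dye swap, and every level below is the log2 ratio of Cy5 to Cy3. A level of 0 means a signal equal to that of the reference, and levels of different probes are not comparable with each other. For some probes the reference itself was near background. Cy3 was well above background on 0 of 20 arrays per tissue for Barx1. For Sox2 it was on 0 in lung and liver and 1 in forestomach, and for Nkx2-1 and Tbx5 on 0 in liver and on 0 and 1 in forestomach. For the second Foxa2 probe it was on 2, 2 and 0 in lung, liver and forestomach. For such probes a level of 0 can mean that both channels were near background.

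Tissue identity in adult organs is kept by small sets of DNA-binding proteins that were first switched on as the gut tube was divided into lung, oesophagus, stomach and liver. Nkx2-1 specifies lung epithelium and drives surfactant genes, and the mesenchyme around it uses Foxf1 and Tbx5. Trp63 (p63) and Sox2 maintain stratified squamous epithelium, which lines the mouse forestomach, while Pitx1 is a homeobox factor best known from the hindlimb and Barx1 patterns stomach mesenchyme. Foxa2 and Gata4 act as pioneer factors across the endoderm, including hepatocytes and the glandular stomach.

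RefSeq promoter sequences (build GRCm38.p6) were at hand for 4 of the 9 genes, in 6 windows. The 250 bases before the start site are shown for a lung factor and for 2 factors that were high in forestomach, because these windows differ widely in CG content. Capitals mark CG dinucleotides.
Nkx2-1, chr12:56536909-56537158, minus strand: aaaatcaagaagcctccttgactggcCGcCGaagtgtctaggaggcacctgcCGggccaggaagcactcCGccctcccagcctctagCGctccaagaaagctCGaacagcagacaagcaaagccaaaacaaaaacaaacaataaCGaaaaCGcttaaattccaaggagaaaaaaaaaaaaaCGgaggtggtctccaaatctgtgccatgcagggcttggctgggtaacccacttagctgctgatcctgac
Sox2, chr3:34649745-34649994, plus strand: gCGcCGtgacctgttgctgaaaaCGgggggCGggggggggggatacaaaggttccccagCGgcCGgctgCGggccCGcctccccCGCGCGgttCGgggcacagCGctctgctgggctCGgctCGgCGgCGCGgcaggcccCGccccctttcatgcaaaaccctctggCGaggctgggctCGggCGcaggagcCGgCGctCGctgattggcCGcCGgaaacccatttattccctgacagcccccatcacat
Barx1, chr13:48662786-48663035, plus strand: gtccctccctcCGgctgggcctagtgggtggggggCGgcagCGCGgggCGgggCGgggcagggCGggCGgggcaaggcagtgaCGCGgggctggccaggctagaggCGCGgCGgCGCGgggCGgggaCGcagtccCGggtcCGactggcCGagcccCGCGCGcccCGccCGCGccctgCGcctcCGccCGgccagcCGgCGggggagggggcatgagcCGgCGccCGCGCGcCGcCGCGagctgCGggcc
The Nkx2-1 window held 9 CG dinucleotides and 50.8% G and C, the Sox2 window 27 and 72%, and the Barx1 window 40 and 85.6%. The median of 32841 windows of the same length was 6 CG dinucleotides and 52.4% G and C. The 3 Foxa2 windows held 6, 20 and 13 CG dinucleotides. A forkhead motif (TGTTTAC, both strands) was in 0 of the 6 windows and in 3.17% of all windows. A GATA motif (AGATAA, both strands) was in 1 of the 6, the third Foxa2 window, and in 9.99% of all windows. The sequence TATAAA (both strands) was in the same Foxa2 window and in 12.4% of all windows. This match lay on the strand opposite to the gene, 208 bases before the start site.

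The share of probes well above background in Cy5 was 34.9 to 58.6% per array in lung, 36.3 to 48.3% in liver and 21.3 to 53.3% in forestomach. Liver lay on 3 slides of its own, so liver against another tissue and slide cannot be told apart. Lung and forestomach shared 5 slides, each of which held every dose. Each tissue carried its defining markers on every array: the mean of 6 lung epithelium markers was 7.06 to 7.75 in lung, that of 7 liver markers was 7.32 to 8.37 in liver, and that of 7 squamous epithelium markers was 4.45 to 6.16 in forestomach. Single arrays stood apart. The lung array of D0 mouse 1 also carried all 7 squamous markers (mean 4.54) and all 8 skeletal muscle markers (mean 4.55), and the forestomach array of D0 mouse 2 carried all 6 lung epithelium markers (mean 6.06). The lung array of D3 mouse 20 carried all 7 liver markers (mean 3.97). In forestomach, the mean of 8 glandular stomach markers ran from 0.25 to 7.54. Fewer cells of a type and less RNA per cell cannot be told apart in these pieces.

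Tissue differences were tested with limma over all 55681 probes. A probe counted as called where it differed by 1.5-fold or more and its Benjamini-Hochberg adjusted p did not exceed 0.05. Of the 11 probes, 5 were called between lung and liver, where 27.3% of all probes were called. Between lung and forestomach 10 of 11 were called, against 21% of all probes, and between liver and forestomach 8 of 11, against 23.3%. The genes were picked as tissue markers, so a share above these backgrounds is a description of the choice. All 20 mice gave an array in each tissue, and no member call between tissues was lost when any mouse was left out.

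**Figure D1:**
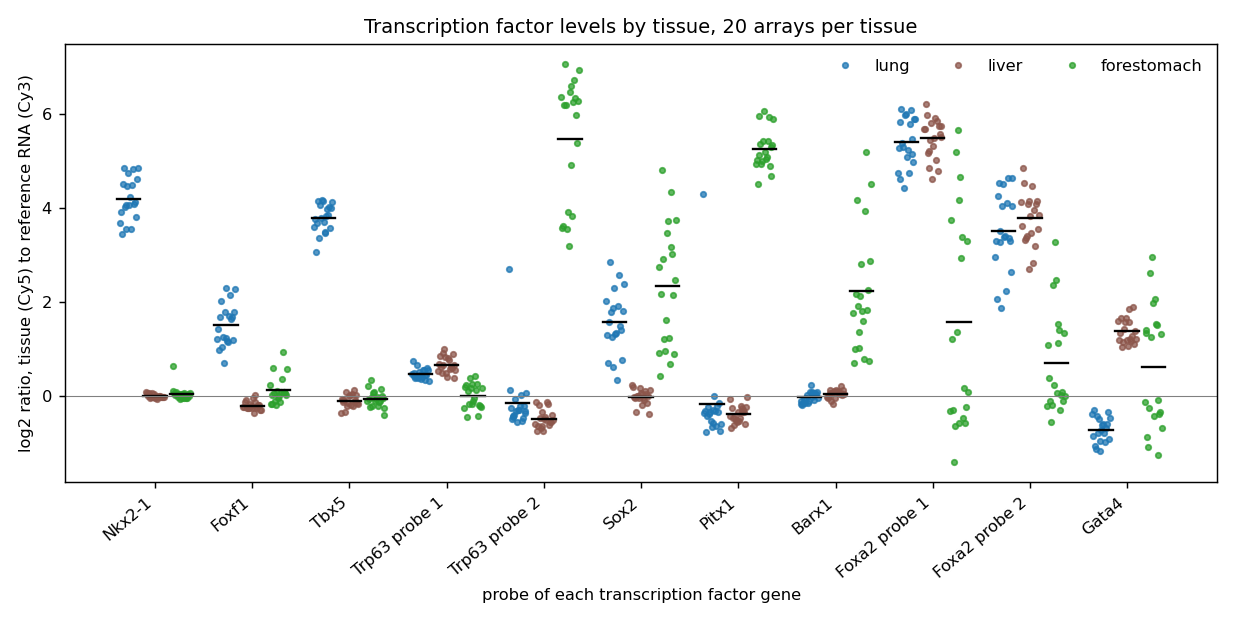
Log2 ratio of tissue to reference RNA (y axis) for the 11 probes of the 9 transcription factor genes (x axis), with 1 point per array in lung, liver and forestomach (20 each) and a dash at the mean. Nkx2-1, Foxf1 and Tbx5 stood highest in lung, Pitx1, Barx1 and the second Trp63 probe in forestomach, and the forestomach points of Foxa2 ranged from -1.42 to 5.68.

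Nkx2-1 was a lung signal. Its level in lung was 3.45 at the lowest, 4.10 at the median and 4.85 at the highest, and it was well above background on 20 of 20 lung arrays. In liver it lay between -0.06 and 0.07 and in forestomach between -0.06 and 0.64, and on none of these 40 arrays was it well above background. The lung arrays did not overlap with those of the other tissues. On scaled Cy5 it was at least 19.0-fold higher in lung than in liver and at least 17.9-fold higher than in forestomach. These bounds, like those below, set the mean of the brighter tissue against the lowest signal well above background, on Cy5 after loess and Aquantile scaling, and are open to dye bias because no dyes were swapped. They hold on that scale only. The raw log2 Cy5 means of Nkx2-1 were 10.40 in lung, 6.19 in liver and 6.16 in forestomach, which are no wider apart than the bound for liver. The raw means of Tbx5 between lung and liver, of Sox2 and the second Trp63 probe between forestomach and liver, of Pitx1 between forestomach and liver and of Barx1 between forestomach and lung were also closer together than their bounds below. The fitted difference was 4.21 ± 0.09 (SE, n = 20 per tissue, limma adjusted p = 1.63e-41) against liver and 4.16 ± 0.09 (limma adjusted p = 4.99e-40) against forestomach, and within the 5 shared slides the latter was 3.58 to 4.77. The highest forestomach level, 0.64 in D0 mouse 2, was on the array that carried the lung epithelium markers, Sftpc at 7.57 among them.

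Tbx5, a T-box factor of lung mesenchyme and heart, gave the same order. Its level was 3.06, 3.81 and 4.17 (lowest, median, highest) in lung, -0.37 to 0.11 in liver and -0.41 to 0.33 in forestomach. No liver array and 1 of 20 forestomach arrays was well above background for it. Lung and the other tissues did not overlap, and lung was at least 14.9-fold higher than liver on scaled Cy5 (raw log2 means 10.05 and 6.22). The fitted lung minus forestomach difference was 3.86 ± 0.07 (limma adjusted p = 6.00e-44) and was 3.55 to 4.14 within slides. Heart muscle markers were on lung arrays too, with a mean over 6 markers of 0.40 to 4.63. Tbx5 was 3.36 to 4.15 on the 10 lung arrays with the highest heart marker means and 3.06 to 4.17 on the other 10, so the sets overlapped.

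Foxf1, a forkhead factor of lung and gut mesenchyme, was lower in level and nearer to its detection limit. It was 0.70, 1.53 and 2.30 in lung, where 20 of 20 arrays were well above background, -0.37 to 0.01 in liver and -0.20 to 0.94 in forestomach, where 3 of 20 were. The lung and forestomach ranges touched, since the lowest lung array lay under the highest forestomach array. Lung was at least 2.73-fold higher than liver on scaled Cy5. The fitted lung minus forestomach difference was 1.40 ± 0.10 (limma adjusted p = 8.83e-18), with 1.06 to 1.67 within slides. Liver and forestomach differed by -0.33 ± 0.10 (limma adjusted p = 0.00496), which is under the 1.5-fold limit.

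Pitx1 was a forestomach signal in all 20 mice. Its level in forestomach was 4.51, 5.17 and 6.07, on 20 of 20 arrays well above background, and in liver it was -0.69 to -0.03 with none. In lung it was -0.78 to 0.00 on 19 arrays and 4.31 on that of D0 mouse 1, the array with squamous and skeletal muscle markers. On scaled Cy5 forestomach was at least 280-fold higher than liver. The raw log2 Cy5 means were 12.95 and 6.23, and the ratio differed by -5.65 ± 0.21 for liver minus forestomach (limma adjusted p = 2.69e-30). The bound on scaled Cy5 is thus much larger than the fold from the raw means or the ratio, and the size of the fold depends on the scale. The fitted lung minus forestomach difference was -5.45 ± 0.21 (limma adjusted p = 4.63e-29), and -6.56 to -4.22 within slides. Lung and liver differed by 0.20 ± 0.21 (limma adjusted p = 0.438) with that array and by -0.04 without it and the forestomach array of D0 mouse 2.

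The 2 Trp63 probes disagreed. The brighter probe, placed on transcript NM_001127261, was well above background on all 60 arrays and nearly level: 0.32 to 0.73 in lung, 0.38 to 0.99 in liver and -0.46 to 0.41 in forestomach. The other, placed on NM_011641, was 3.20, 6.20 and 7.08 in forestomach, -0.57 to 2.71 in lung and -0.76 to -0.13 in liver. So Trp63 was highest in forestomach by 1 probe and lowest there by the other. For the second probe, forestomach was at least 37.7-fold higher than liver on scaled Cy5, with raw log2 Cy5 means of 10.56 and 6.21, and the lung minus forestomach difference was -5.62 ± 0.27 (limma adjusted p = 3.12e-25), with -7.18 to -4.41 within slides. Its lung maximum, 2.71, was again on the array of D0 mouse 1, where Krt5, a basal keratin, read 3.46, while the next lung array stood at 0.11. For the first probe, liver minus forestomach was 0.66 ± 0.06 (limma adjusted p = 1.57e-14) as a ratio and -0.36 on scaled Cy5, while the raw log2 Cy5 means were 9.64 in liver and 9.11 in forestomach, in the direction of the ratio. The raw log2 reference signal of this probe was 9.57 on liver arrays and 10.8 on forestomach arrays. Between lung and liver the ratio differed by -0.19 ± 0.06 (limma adjusted p = 0.00502), under the 1.5-fold limit, and scaled Cy5 by 0.73, with raw log2 Cy5 means of 10.52 in lung and 9.64 in liver.

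Sox2, a factor of airway and squamous epithelium, was found in both lung and forestomach. It was 0.34, 1.53 and 2.85 in lung and 0.42, 2.32 and 4.83 in forestomach, with 19 of 20 arrays well above background in each. Liver lay between -0.38 and 0.22 with none. The lung and forestomach ranges overlapped over most of their width. Forestomach was at least 3.11-fold and lung at least 1.97-fold higher than liver on scaled Cy5. Lung minus forestomach was -0.76 ± 0.28 (limma adjusted p = 0.0194), -1.57 to -0.05 within slides, and -0.53 on the D0 arrays alone, which was not called.

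Barx1, a homeobox factor of stomach mesenchyme, was a forestomach signal. It was 0.70, 1.87 and 5.19 in forestomach, on 19 of 20 arrays well above background, -0.20 to 0.24 in lung with none and -0.18 to 0.21 in liver with 1. Every forestomach array lay above every array of the other tissues. Forestomach was at least 3.27-fold higher than lung on scaled Cy5, and the fitted lung minus forestomach difference was -2.26 ± 0.25 (limma adjusted p = 1.27e-11), with -4.22 to -0.92 within slides. The mean of 6 smooth muscle markers was 4.51 to 6.60 in forestomach, 0.25 to 1.80 in lung and -2.34 to -1.73 in liver, and its part in the Barx1 difference was not tested.

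Foxa2, the forkhead pioneer factor of endoderm, was high in both lung and liver. By its brighter probe it was 4.43, 5.35 and 6.13 in lung and 4.62, 5.55 and 6.22 in liver. The ranges of both tissues overlapped almost fully, and their difference of -0.08 ± 0.41 (limma adjusted p = 0.886) had a 95% interval of -0.90 to 0.74. The second probe of Foxa2 gave 1.86 to 4.65 in lung and 2.70 to 4.87 in liver, a difference of -0.28 ± 0.26 (limma adjusted p = 0.384). Forestomach was lower by both probes, by 3.84 ± 0.41 against lung for the first (limma adjusted p = 6.98e-12; 2.07 to 5.44 within slides) and 2.81 ± 0.26 for the second (limma adjusted p = 5.00e-14).

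Gata4, a zinc-finger factor of heart, liver and stomach, had its highest mean over all doses in liver (1.38, against 0.62 in forestomach). At D1 the means were 1.40 in liver and 1.71 in forestomach. Gata4 was 1.03, 1.31 and 1.90 in liver and -1.19, -0.71 and -0.31 in lung, and these ranges did not overlap. The lung minus liver difference was -2.10 ± 0.22 (limma adjusted p = 4.48e-12). In forestomach it was -1.27, 0.58 and 2.96, which reached past both other tissues. Lung minus forestomach was -1.34 ± 0.22 (limma adjusted p = 8.26e-07), -2.16 to -0.33 within slides, and -0.87 on the D0 arrays alone, which was not called. Liver minus forestomach was 0.76 ± 0.22 (limma adjusted p = 0.00334). On the 10 lung arrays with the highest heart marker means Gata4 was -1.19 to -0.40, and on the other 10 it was -1.07 to -0.31.

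The forestomach spread of Foxa2 and Gata4 moved with glandular stomach markers. On the 10 forestomach arrays with the highest glandular marker means (5.81 and above), Foxa2 was 1.22 to 5.68, and on the other 10 (4.42 and below) it was -1.42 to 0.16. Gata4 was 1.25 to 2.96 and -1.27 to -0.09 on the same arrays. The sets did not overlap for either gene or for the second Foxa2 probe (0.24 to 3.29 and -0.56 to 0.07). Of the 10 arrays with the highest marker means, 2 were at D0, 4 at D1, 3 at D2 and 1 at D3. Atp4b, a subunit of the gastric proton pump of parietal cells, was well above background on 2 of 5 arrays at D0, 5 of 5 at D1, 4 of 5 at D2 and 3 of 5 at D3. D1 mouse 9 had the highest values of all, with a marker mean of 7.54, Foxa2 at 5.68 and Gata4 at 2.96. D1 mouse 6, D2 mouse 15, D3 mouse 16 and D3 mouse 20 had Atp4b above background with marker means of 1.44, 2.55, 4.42 and 4.21 and Foxa2 at -0.64, -0.48, 0.16 and 0.08.

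Markers of other tissues also varied among the forestomach arrays. The mean of 7 liver markers ran from 0.00 to 4.41, and D2 mouse 15, with the highest mean, had Foxa2 at -0.48. Of these markers Apoa1 was well above background on 15 forestomach arrays and Cps1, a urea cycle enzyme of hepatocytes, on 1. The second Trp63 probe was 3.20 to 6.47 on the 10 arrays with the most glandular signal and 5.39 to 7.08 on the others, and 7 of its 10 lowest arrays were among the former. Pitx1 was 4.51 to 6.07 and 4.68 to 5.97 on the same sets, so the sets overlapped over most of their width. Without the 14 forestomach arrays on which Atp4b was above background, lung minus forestomach was 5.98 for Foxa2 in place of 3.84 and -0.18 for Gata4 in place of -1.34, and the call on Gata4 was lost. Liver minus forestomach was then 6.06 for Foxa2 in place of 3.92 and 1.92 for Gata4 in place of 0.76. Their part in these results was not tested beyond this.

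**Figure D2:**
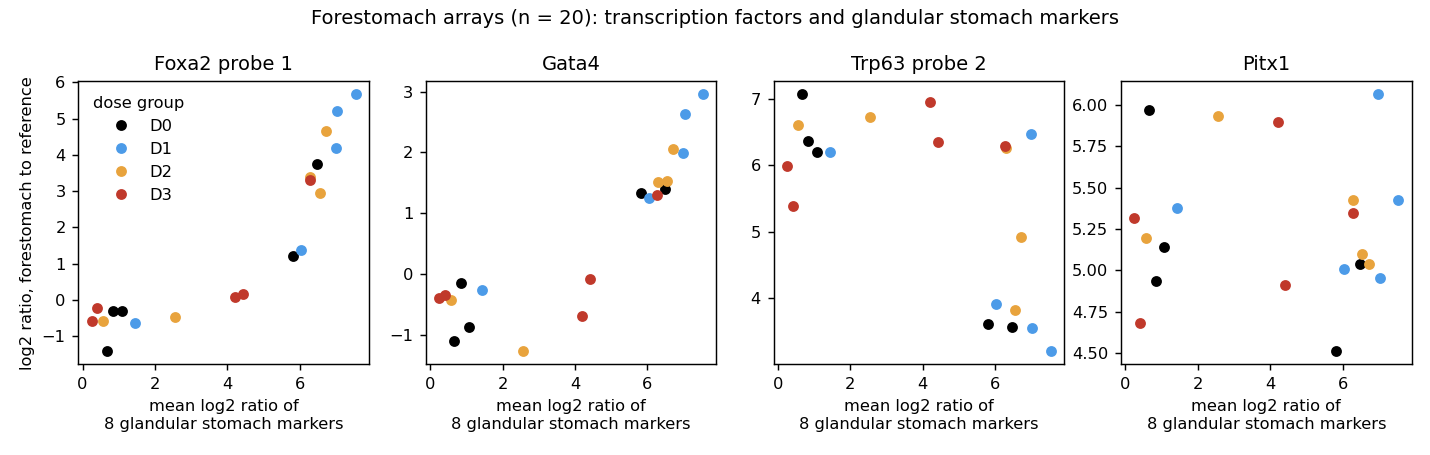
Log2 ratio of Foxa2 (first probe), Gata4, the second Trp63 probe and Pitx1 (y axes) on the 20 forestomach arrays against the mean log2 ratio of 8 glandular stomach markers (x axis), coloured by dose group. The 10 arrays to the right, at 5.81 and above, hold all Foxa2 levels of 1.22 and above and all Gata4 levels of 1.25 and above, while Pitx1 overlaps between both sides.

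The reference channel was not constant between tissues, although the same reference RNA was used throughout. The raw log2 Cy3 signal of the Pitx1 probe was 9.46 ± 0.77 (SD, n = 20) on forestomach arrays, 5.89 ± 0.17 on liver arrays and 6.23 ± 0.45 on lung arrays. That of the Nkx2-1 probe was 6.50 ± 0.32 on lung arrays and 5.13 ± 0.13 on liver arrays, and that of Tbx5 6.52 ± 0.31 and 5.36 ± 0.16. For these genes Cy3 was thus higher where Cy5 was higher. Other members differed, with raw channels centred as described below. For lung minus forestomach, the second Trp63 probe had -4.16 in Cy5 and -0.01 in Cy3, and the first Foxa2 probe 3.94 and 0.17. For liver minus forestomach, the first Trp63 probe had 0.43 in Cy5 and -0.99 in Cy3. Over the array the Cy3 signal of dim-reference probes also moved with Cy5, by amounts that varied. Both raw channels were centred on the median difference of all probes for this. Where Cy5 was at least 6 log2 units higher in the first tissue, the median Cy3 difference was 3.31 for lung minus liver (19 probes), 3.05 for lung minus forestomach (10 probes) and 1.49 for liver minus forestomach (172 probes). Where it was at least 6 lower, the medians were -1.72 (168 probes), -3.24 (36 probes) and -3.21 (49 probes), and in these 6 sets 99.4 to 100% of probes had the same sign in both channels. For Cy5 differences of 4 to 6 the medians ran from 0.35 to 0.59 and from -1.23 to -0.31, and 89.4 to 100% of probes had the same sign. For Pitx1, lung minus forestomach was -5.45 as a ratio, -6.60 in raw Cy5 centred in this way and -8.01 on Cy5 after loess and Aquantile scaling. For Nkx2-1 these values were 4.16, 4.09 and 4.50. The cause was not tested, and the ratios are given as measured.

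Levels differed between slides as well. Each slide with lung and forestomach held its own 4 mice, the same in both tissues, so slide and mice cannot be told apart there. Within tissues, after dose was accounted for, 7 of 9 tested probes differed between slides in lung, against 56.6% of all tested probes, 4 of 8 in forestomach, against 37.4%, and 2 of 4 in liver, against 26.5% (limma F test, Benjamini-Hochberg adjusted p not above 0.05). In lung, the means on slides 2 and 5 were 3.59 and 4.82 for Nkx2-1, 1.00 and 2.19 for Foxf1, 0.60 and 2.52 for Sox2 and 4.70 and 6.03 for Foxa2, and these were the lowest and the highest of the 5 slides for each gene. Gata4 ran the other way, at -0.44 on slide 2 and -0.94 on slide 5. In forestomach, slides 2 and 5 were also lowest and highest for Sox2 (0.74 and 4.10), Barx1 (0.88 and 4.17), Pitx1 (4.83 and 5.97) and the second Trp63 probe (4.19 and 6.81). The share of probes well above background was lowest on slide 2 (39.0% in lung, 24.6% in forestomach) and highest on slide 5 (58.4% and 50.7%). Its part in these levels was not tested.

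**Figure D3:**
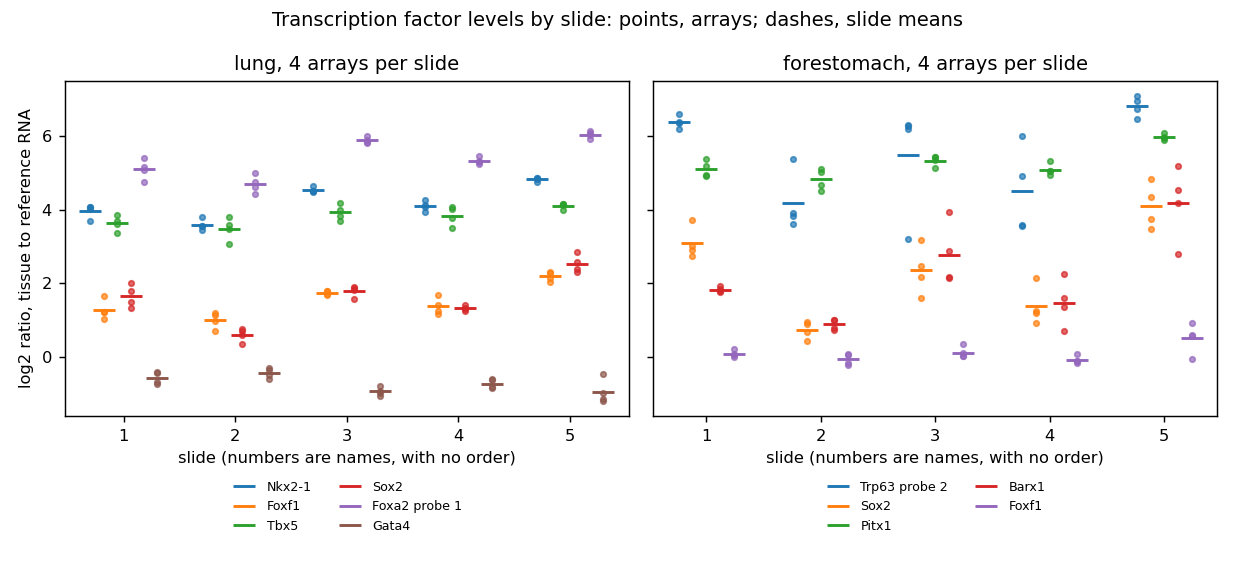
Log2 ratio of tissue to reference RNA (y axis) by slide (x axis, 5 slides that hold both tissues) in lung (left) and forestomach (right), with 1 point per array, 4 arrays per slide, and a dash at each slide mean. Sox2 rises from 0.60 on slide 2 to 2.52 on slide 5 in lung and from 0.74 to 4.10 in forestomach.

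Exposure to BghiP was compared with vehicle within each tissue, on probes whose Cy5 signal was detected above background on 5 or more of the 20 arrays. Under limma, none of the 9 probes tested in lung, the 4 in liver or the 8 in forestomach was called at D1, D2 or D3, and 0% of all 31019, 25890 and 25068 tested probes were. At an unadjusted p under 0.05, 0 of 9 probes passed in lung at D1, D2 and D3, against 2.22%, 3.4% and 4.81% of all probes. In liver 1 of 4 passed at D1, against 3.03%, and 0 at D2 and D3, against 4.15% and 12.1%. In forestomach 2 of 8 passed at D1, against 9.36%, and 0 at D2 and D3, against 3.66% and 1.5%. A slide block brought the calls to 21 probes in lung at D3 (0.0677%) and 24 in liver at D3 (0.0927%), with no member among them, and left 0% in the other comparisons of dose with vehicle. With that block 1, 1 and 3 of 9 probes passed an unadjusted p under 0.05 in lung at D1, D2 and D3, 2 of 4 in liver at D1 and 4 of 8 in forestomach at D1, against 9.37%, 12.2%, 15.6%, 4.24% and 18.1% of all probes. With the block 0 passed in liver at D2 and D3, against 6.83% and 17.9%, and in forestomach at D2 and D3, against 9.42% and 6.44%. Each dose also had a fixed column on every slide that held lung and forestomach, so position on the slide and dose cannot be told apart there.

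In lung, the levels of the lung factors lay close together across doses. Nkx2-1 was 4.09 ± 0.58 (SD, n = 5) at D0, 4.18 ± 0.46 at D1, 4.24 ± 0.48 at D2 and 4.30 ± 0.43 at D3. The D3 minus D0 difference was 0.21, and with slide as a block its SE was 0.07 and its limma p was 0.00800 before and 0.150 after adjustment. Foxf1 was 1.46 ± 0.41 at D0 and 1.72 ± 0.38 at D3, a difference of 0.25 ± 0.09 (SE, slide block, limma adjusted p = 0.204), and Tbx5 was 3.66 ± 0.39 and 3.92 ± 0.21, a difference of 0.26 ± 0.12 (slide block, limma adjusted p = 0.293). These 3 probes were the ones of 9 with an unadjusted p under 0.05 in that fit, against 15.6% of all probes. Sox2 was 1.69 ± 0.80 at D0 and 1.57 ± 0.60 at D3, and Foxa2 5.32 ± 0.66 and 5.48 ± 0.42, and neither passed an unadjusted p under 0.05.

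In forestomach, the largest differences at D1 were those of the factors that moved with glandular markers. Foxa2 was -0.32, 3.74, 1.22, -0.30 and -1.42 in the D0 mice and -0.64, 5.20, 1.37, 5.68 and 4.18 in the D1 mice, and the groups overlapped. The D1 minus D0 difference was 2.58 ± 1.29 (SE, n = 5, limma adjusted p = 0.549). For Gata4 it was 1.59 ± 0.70 (limma adjusted p = 0.517), and for the second Foxa2 probe 1.51 ± 0.57 (limma adjusted p = 0.506). On the arrays with Atp4b above background alone, 2 at D0 and 5 at D1, the differences were 0.68 ± 1.72 for Foxa2 and 0.35 ± 0.93 for Gata4. Neither was called there or on all arrays, and with 2 arrays at D0 these values are a description only. The part of glandular tissue in the D1 differences was not tested. Pitx1 was 5.12 ± 0.53 at D0, 5.37 ± 0.45 at D1, 5.34 ± 0.36 at D2 and 5.23 ± 0.47 at D3. Its D1 minus D0 difference of 0.25 ± 0.11 (SE, slide block, limma adjusted p = 0.263) passed an unadjusted p under 0.05 with the slide block, as did those of Gata4 and both Foxa2 probes. Without the block, Gata4 and the second Foxa2 probe passed and Pitx1 and the first Foxa2 probe did not. The second Trp63 probe was 5.37 ± 1.65 at D0, 4.67 ± 1.55 at D1, 5.67 ± 1.26 at D2 and 6.20 ± 0.57 at D3, and passed at no dose in either fit.

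In liver, Foxa2 was 5.75 ± 0.39 (SD, n = 5) at D0, 5.20 ± 0.47 at D1, 5.53 ± 0.37 at D2 and 5.48 ± 0.39 at D3. The D1 minus D0 difference was -0.56 ± 0.23 (SE, limma adjusted p = 0.9998), with an unadjusted p of 0.0259. For the second probe it was -0.56 ± 0.32 (limma unadjusted p = 0.0968). With slide as a block the differences of the first and second probe were -0.56 ± 0.19 and -0.62 ± 0.20 (limma unadjusted p = 0.00966 and 0.00665). Neither was called, with a limma adjusted p of 0.9995 for each. Gata4 was 1.36 ± 0.27 at D0 and 1.37 ± 0.31 at D3.

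**Figure D4:**
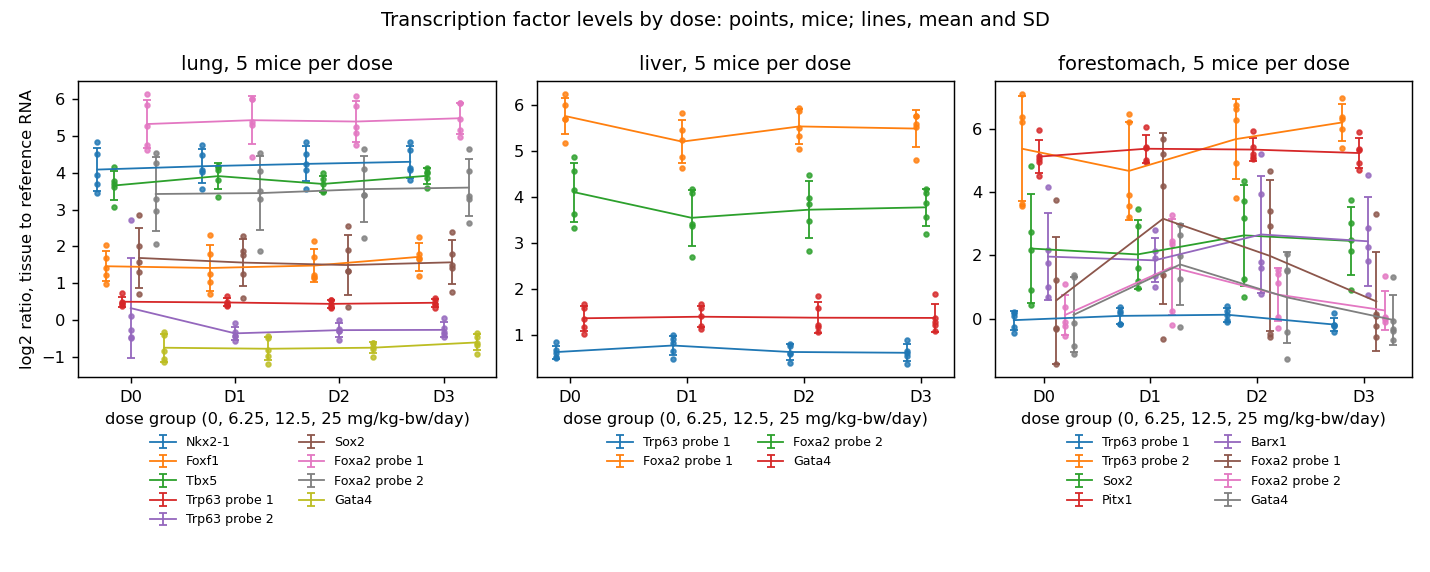
Log2 ratio of tissue to reference RNA (y axis) by dose group (x axis) for the probes tested in lung, liver and forestomach, with 1 point per mouse, 5 mice per dose, and lines through the group means with bars of 1 SD. In forestomach the bars of Foxa2 run over several log2 units at each dose, while Pitx1 stays between group means of 5.12 and 5.37.

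Slopes on dose gave no member call in any tissue under limma, where 0% of probes in lung and forestomach and 0.239% in liver were called. With slide as a block the backgrounds were 0.306% in lung, 2.62% in liver and 0% in forestomach, again with no member called. The lowest unadjusted p in lung with the block was that of Nkx2-1, with a slope of 0.0082 log2 units per mg/kg-bw/day (limma adjusted p = 0.153). The change at D3 was also compared between tissues. Under limma none of the 11 probes and 0% of all 55681 probes differed after adjustment in any pair of tissues. Before adjustment 1 of the 11 passed the 0.05 level, Tbx5 between lung and forestomach (difference of the changes 0.40 ± 0.19). At that level 2.83% of all probes passed.

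Other regulators were read from lists. Of all 55681 probes, 8712 were called higher and 6477 lower in lung than in liver, 6257 higher and 5419 lower in lung than in forestomach, and 5825 higher and 7169 lower in liver than in forestomach, which is the background for the counts of list genes and targets below. Of 12 lung regulators, 10 were called higher in lung than in liver and 0 lower (median difference 3.08, against -0.01 over all probes), and 9 were higher and 1 lower in lung than in forestomach (median 1.64, against -0.02). Among those higher than in forestomach were Tbx4, a T-box factor of lung mesenchyme that was well above background on 4 of 20 forestomach arrays (4.39 ± 0.18), Etv5, an ETS factor of alveolar epithelium (4.37 ± 0.11), and Foxj1, the master factor of ciliated cells, which was not well above background on any forestomach array and was at least 8.29-fold higher in lung on scaled Cy5. Foxp2 was the gene that was lower in lung (-0.62 ± 0.14). Of 11 squamous regulators, 10 were higher in forestomach than in lung and 9 higher than in liver (medians of -1.85 for lung minus forestomach and -2.69 for liver minus forestomach). Grhl3, a grainyhead factor of the epidermal barrier (-5.03 ± 0.29), Tfap2c (-4.39 ± 0.31) and Tfap2a (-3.10 ± 0.18) were among those higher than in lung, and Klf4 (-5.81 ± 0.08), Grhl3 (-5.67 ± 0.29) and Klf5 (-4.60 ± 0.11) among those higher than in liver. Tfap2c was well above background on 3 and Tfap2a on 10 of 20 lung arrays, so their differences are taken against arrays near background. Pax9 was not called in either comparison.

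Of 8 stomach mesenchyme regulators, 4 were higher in forestomach than in lung, 1 was lower (Foxf2, 1.35 ± 0.11 for lung minus forestomach) and 3 were not called. Sfrp1 (-1.53 ± 0.23) and Sfrp2 (-1.03 ± 0.17), secreted Wnt antagonists that Barx1 is known to induce, were among the former, with Six2 (-1.499 ± 0.17) and Nkx2-3 (-0.89 ± 0.08). Six2 was well above background on 5 and Nkx2-3 on 1 of 20 lung arrays, and each on 11 forestomach arrays. Their differences are thus taken against arrays near background. Of 14 liver and endoderm regulators, 11 were higher in liver than in lung, 2 were lower and 1 was not called (median of -4.43 for lung minus liver). The fitted differences of Onecut2 (-7.01 ± 0.26), Nr1h4, the bile acid receptor FXR (-6.85 ± 0.16), and Nr1i3, the xenobiotic receptor CAR (-6.12 ± 0.06), are given without an order, since these genes were well above background on 13, 4 and 1 of 20 lung arrays. In the other direction, Gata6 (1.93 ± 0.25) and Foxa1 (0.63 ± 0.24) were higher in lung. Among the closest relatives of Foxa2 and Gata4, Foxa3, which was well above background on 4 of 20 lung arrays, differed by -5.50 ± 0.30 for lung minus liver and Gata5 was not called (0.19 ± 0.05).

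Known target genes were counted by factor. All 8 measured Nkx2-1 targets were higher in lung than in liver and in forestomach (median differences 6.69 and 6.22), with Sftpc, a surfactant protein of alveolar type 2 cells, at 7.43 ± 0.33 against forestomach. Sftpc was well above background on 8 of 20 forestomach arrays, with the highest, 7.57, on that of D0 mouse 2. Of 7 Trp63 targets, 7 were higher in forestomach than in liver and 5 higher than in lung, with 1 lower, the integrin gene Itga6 (1.26 ± 0.13), and 1 not called. Perp, a desmosome component, was among them (lung minus forestomach -5.81 ± 0.20). All 6 Foxa2 targets were higher in liver than in lung (median of -7.56 for lung minus liver), beside the Foxa2 difference of -0.08 given above. Between lung and forestomach, where Foxa2 was higher in lung by 3.84, 0 of its 6 targets were higher in lung, 4 were higher in forestomach and 2 were not called. Of these 6 targets 5 (Alb, Ttr, Apoa1, Cps1 and Tat) are also liver markers, whose mean varied from 0.00 to 4.41 over the forestomach arrays, and Ttr and Apoa1 were well above background on 1 of 20 lung arrays. The part of liver marker signal in these counts was not tested. Both Barx1 targets were higher in forestomach than in lung and in liver, and both were also called higher in lung than in liver, where neither was well above background on any array (at least 1.44-fold for Sfrp1 and 4.50-fold for Sfrp2 on scaled Cy5). Barx1 itself was well above background on 0 lung arrays and 1 liver array. Of 24 listed targets 23 were found on the array. Across the 19 family members, 6 were higher in lung than in forestomach, 5 lower and 8 not called, and the Tbx5 relatives Tbx4, Tbx3 (4.17 ± 0.15) and Tbx2 (1.58 ± 0.16) were all among the first. Without the slide block, under which the lists were not counted, no tested gene of these lists was called against vehicle in any tissue at any dose, where 0% of all probes were. Before adjustment, 4 of the 10 liver and endoderm regulators tested in forestomach passed the 0.05 level at D1, against 9.36% of all probes, with a median D1 minus D0 difference of 1.51 over the 10, against -0.02 over all probes. Of the 10 arrays with the highest glandular marker means, 2 were at D0 and 4 at D1, and their part was not tested.

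For each factor, the genes whose residuals after dose and slide ran most like it over the 20 arrays of its highest tissue were taken as a description, since all genes of an array share its RNA and hybridization. For Nkx2-1 in lung these were Mecom (r = 0.88), Slc7a4 (0.87) and Dhrs7b (0.84), and for Tbx5 Gdpd5 (0.94), Atf6 (0.92) and Ccnq (0.91). For Foxf1 in lung they were Gid4 (0.87), Kpna4 (0.86) and Rab11fip1 (0.85). For the second Trp63 probe in forestomach, Spns2, Klk11 and Gdpd2 all reached 0.98, and for Sox2 Tfap2e (0.95), Klhl18 (0.95) and Dll1 (0.94) led. For Pitx1 they were Lrig2 (0.87), Nnmt (0.86) and Pip4p2 (0.83), and for Barx1 AW554918 (0.95), Tpm2 (0.94) and Btrc (0.94). In liver, Foxa2 ran most like Lefty1 (0.87), Cish (0.87) and Serpina4-ps1 (0.83), Gata4 like Dnajc30 (0.85), Mtap (0.84) and Ube2l3 (0.83), and the first Trp63 probe like Arhgap17 (0.83), Leng1 (0.82) and Wdr18 (0.77). These are correlations of residuals, and those of the levels themselves can differ: with slide and dose left in, r was -0.79 for Nnmt and 0.16 for Lrig2 with Pitx1, 0.11 for AW554918 with Barx1, -0.01 for Ccnq with Tbx5 and 0.04 for Lefty1 with Foxa2. Without the 2 arrays farthest from the median the residual values were 0.65 to 0.97.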

How the data were processed

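RNA of 3 tissues of 20 mice was hybridized to 60 Agilent SurePrint G3 8x60K arrays against a common reference. The authors extracted signals with Feature Extraction (version 10.7.3.1) and deposited, per the file headers, red and green median intensity values per spot, and a table of log2 ratios. Of 62976 spots, 3671 control spots were left out. Median intensities without background subtraction were loess-normalized within each array as in the study's methods, spots of a probe were averaged, and 0.0361% of values were dropped as non-uniform spots, with limma (version 3.58.1) in R (version 4.3.3). These ratios and the deposited log2 ratios correlated at 0.992 to 0.999 per array. RefSeq accessions gave 47.4% of 55681 probes a symbol. The study's MAANOVA program was not available, so limma with Benjamini-Hochberg adjustment was used in its place, and functions were tested on simulated data. Dose tests used the 31019, 25890 and 25068 probes of lung, liver and forestomach detected above background in Cy5 on 5 or more of 20 arrays. The number of arrays limits the precision. The 9 genes and all lists were chosen with earlier results of these data known. All 9 are named, each by its brightest probe with its other probe beside it, list genes by counts with 3 fitted differences in each direction, taken by size without regard to detection and therefore in no order where a tissue was near background, and the 3 genes most alike. The comparison of Foxa2 and Gata4 relatives, the families of Tbx5 and the targets named singly were chosen after their values were seen. Same-numbered arrays come from the same mouse in the labels, so the numbers pair the samples (consensus correlation 0.0505 within mice, 0.172 within slides). Each group held 5 mice, so n counts mice. Each result was recomputed with other background correction, the processed signals, the deposited ratios, other filters, mouse and slide blocks, and with arrays left out. Settings with Cy5 alone, without the lung array of D0 mouse 1 and the forestomach array of D0 mouse 2, and by Atp4b were added after the data were seen. The lung array of D3 mouse 20, with liver markers, was kept in these settings. Promoter sequences are from RefSeq (GRCm38.p6). The arrays' own coordinates are of another build and were not used here.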

Additional observations from a re-analysis of the deposited data

Results flagged for a closer look

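Of 132 sets of 5 mice (11 probes in 12 groups), 8 held an array whose gap to the nearest of the others was large for the range of the set, where chance alone gives about 1 in 20 sets. In lung at D0, mouse 1 read 4.31 for Pitx1, with the next array at -0.33, and 2.71 for the second Trp63 probe, with the next at 0.11. In forestomach at D0, mouse 2 read 0.64 for Nkx2-1, with the next at 0.11. In forestomach at D3, mouse 19 read 3.3 for the first Foxa2 probe and 1.34 for the second, with the next arrays at 0.16 and 0.07, and mouse 20 read 0.57 for Foxf1, with the next at 0.09. In liver at D3, mouse 16 was lowest for the first Foxa2 probe at 4.8, with the next at 5.51. In liver at D0, mouse 1 was lowest for Tbx5 at -0.37, with the next at -0.13, and no liver array was well above background for Tbx5. The lung array of D0 mouse 1 and the forestomach array of D0 mouse 2 are among those with markers of other tissues described above. The forestomach array of D3 mouse 19 had a glandular marker mean of 6.28. No result differed between tissues in its change at D3 after adjustment.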

How the results depend on the processing

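For single probes, 363 of 374 tissue values kept their direction and their side of the threshold over the alternatives, and 56 of 56 dose values did. Foxa2 (first probe) between lung and liver turned from -0.08 to 0.061 with normexp and to 0.060 on scaled Cy5 alone. On Cy5 alone, after loess and Aquantile scaling, the first Trp63 probe turned from -0.19 to 0.73 for lung minus liver and from 0.66 to -0.36 for liver minus forestomach, while its centred raw Cy5 differences were 0.89 and 0.43. Pitx1 for lung minus liver turned from 0.20 to -0.035 without the lung array of D0 mouse 1 and the forestomach array of D0 mouse 2, and ran from -0.038 (without mouse 1) to 0.290 when single mice were left out. With the processed signals the probes called rose from 15189 to 25364 for lung minus liver, from 11676 to 21333 for lung minus forestomach and from 12994 to 24079 for liver minus forestomach. With them 1 probe was called in lung at D3 and 5 in liver at D3, where the ratios above gave 0, and 119 for the liver slope in place of 62. With slide as a fixed block, 21 probes were called in lung at D3, 24 in liver at D3, 95 for the lung slope and 678 for the liver slope. The causes were not tested. Leaving out single mice gave 0 to 29 probes for liver D3 (29 without D0 mouse 1) and 0 to 239 for the liver slope, which lost all calls without mouse 3, 17, 19 or 20, fell to 4 to 34 without mouse 2, 5, 6, 7, 12 or 16 and rose to 239, 110 and 102 without mouse 1, 4 and 11. The counts of member probes called moved only to 8 for lung minus forestomach on D0 arrays, to 6 and 9 for lung minus liver and liver minus forestomach with processed signals, and to 6 and 7 on scaled Cy5 alone. With the mouse number as a replicate block the pairing gave 15192, 11678 and 12996 probes for the 3 tissue comparisons, changed no call on a member, and left the change at D3 with 0 calls. Aquantile scaling changes average signals and not ratios, so it gave the same values by construction. Where highest, Sox2 and Barx1 were above background on 19 of 20 arrays and the other members on 20.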
